A study of Mus musculus with 2 samples.

Results

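The fibroblast growth factor (FGF) ligands, their receptors and the genes that restrain or report FGF signaling were measured across the cell classes of the mouse lung at P14. The members were taken by symbol and comprise 22 numbered *Fgf* genes, the receptor genes *Fgfr1* to *Fgfr4* and *Fgfrl1*, and 11 feedback and target genes (*Spry1* to *Spry4*, *Spred1* to *Spred3*, *Dusp6*, *Etv1*, *Etv4* and *Etv5*). These are 38 of the 32285 genes listed. FGF ligands bind receptor tyrosine kinases on the same or neighboring cells and signal largely through the RAS-ERK cascade. That cascade raises the ETS factors *Etv1*, *Etv4* and *Etv5*, the ERK phosphatase *Dusp6* and the inhibitors of the Sprouty and Spred families. In the lung, stromal *Fgf10* and *Fgf7* act on epithelial *Fgfr2*, and FGF signaling between stroma and epithelium shapes branching and alveolar growth.

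Single-cell RNA-seq was made from sorted lung stromal and epithelial cells of 1 control and 1 *Gli1 HHIPCKO* mouse at day 14 after birth. Both mice were Gli1creERT/+ with both *Hhip* alleles floxed. The *Gli1 HHIPCKO* mouse received tamoxifen in the first days after birth to delete *Hhip*, an antagonist of hedgehog ligands, in cells that then expressed *Gli1*, and the control mouse received oil. The Cre is driven by *Gli1*, so cells without *Gli1* at that time were not targeted. The control library held 43291709 unique molecular identifiers (UMIs) in 10999 cells and the *Gli1 HHIPCKO* library 52338969 UMIs in 12350 cells, of which 10917 and 12115 cells were kept. The libraries shared 193 cell barcodes.

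With 1 mouse per group there was no replicate error, and no test was made. Levels are the UMIs summed over the cells of a class, scaled to the total of the class (CPM), and log2 ratios set *Gli1 HHIPCKO* over control. The 95% intervals in parentheses, exact Poisson for CPM and exact binomial for a ratio or share, cover counting error only. *Xist* was detected in 0.110% of cells in the control library and 56.7% in the other, and *Ddx3y* in 11.9% and 0% (0 of 12115 cells, a limit of 0.0248% on cells with a UMI, not on cells that express the gene), so sex and deletion cannot be told apart. Tamoxifen itself, given only to the *Gli1 HHIPCKO* mouse, cannot be told apart from deletion either. Cell classes were rebuilt by clustering and are written with "-like". Alveolar myofibroblasts (ALMFs) and ductal myofibroblasts (DMFs) surround alveoli and alveolar ducts, and AT2s are the surfactant-producing epithelial cells.

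DMF-like cells held the deleted gene *Hhip* at 1977 CPM in the control and 347 CPM in the *Gli1 HHIPCKO* library (log2 ratio -2.51), and ALMF-like cells at 505 and 210 CPM. The hedgehog target *Gli1* had 12 and 171 UMIs in DMF-like and 30 and 66 UMIs in ALMF-like cells (log2 ratios 3.13 and 1.69). The targeted gene was thus lower and the readout higher in the *Gli1 HHIPCKO* library in both classes.

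Different clusters held most cells of each myofibroblast class in each library, so library and cluster are not separated within them. Control ALMF-like cells were mainly in clusters M3 (989 control and 53 *Gli1 HHIPCKO* cells) and M10 (458 and 27), and *Gli1 HHIPCKO* ALMF-like cells in M5 (8 and 978). Their marker scores for ALMFs were 0.95, 0.77 and 0.70, and for DMFs 0.28, 0.53 and 0.55. Control DMF-like cells were in M1 (1236 and 15), and *Gli1 HHIPCKO* DMF-like cells in M4 (14 and 997) and M9 (5 and 577). Their scores for DMFs were 0.69, 0.95 and 0.69, and for ALMFs 0.55, 0.46 and 0.60. *Socs3*, *Egr1* and *Junb*, immediate early genes that respond within minutes to growth factors and to tissue handling, were among the leading genes of M10 and M9. The summed level of 15 immediate early genes, *Jun* being the most abundant in either library's cells of both classes, went from 10065 to 3853 CPM in ALMF-like cells and from 2566 to 14302 CPM in DMF-like cells. Most AT2-like control cells were in cluster A0 (2659 and 508) and most *Gli1 HHIPCKO* AT2-like cells in A1 (260 and 2286), which *Lcn2* leads.

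Of the 38 members, 21 reached 50 UMIs over both libraries in at least 1 class: 6 ligands, 5 receptors and 10 feedback genes. A further 13 were detected below that minimum in every class, with at most 166 UMIs in all. *Fgf4*, *Fgf6*, *Fgf15* and *Fgf23* had 0 UMIs in both libraries, which limits cells with a UMI to 0.0275% in the control library and 0.0248% in the other, and sets no such limit on cells that express the genes.

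**Figure D1:**
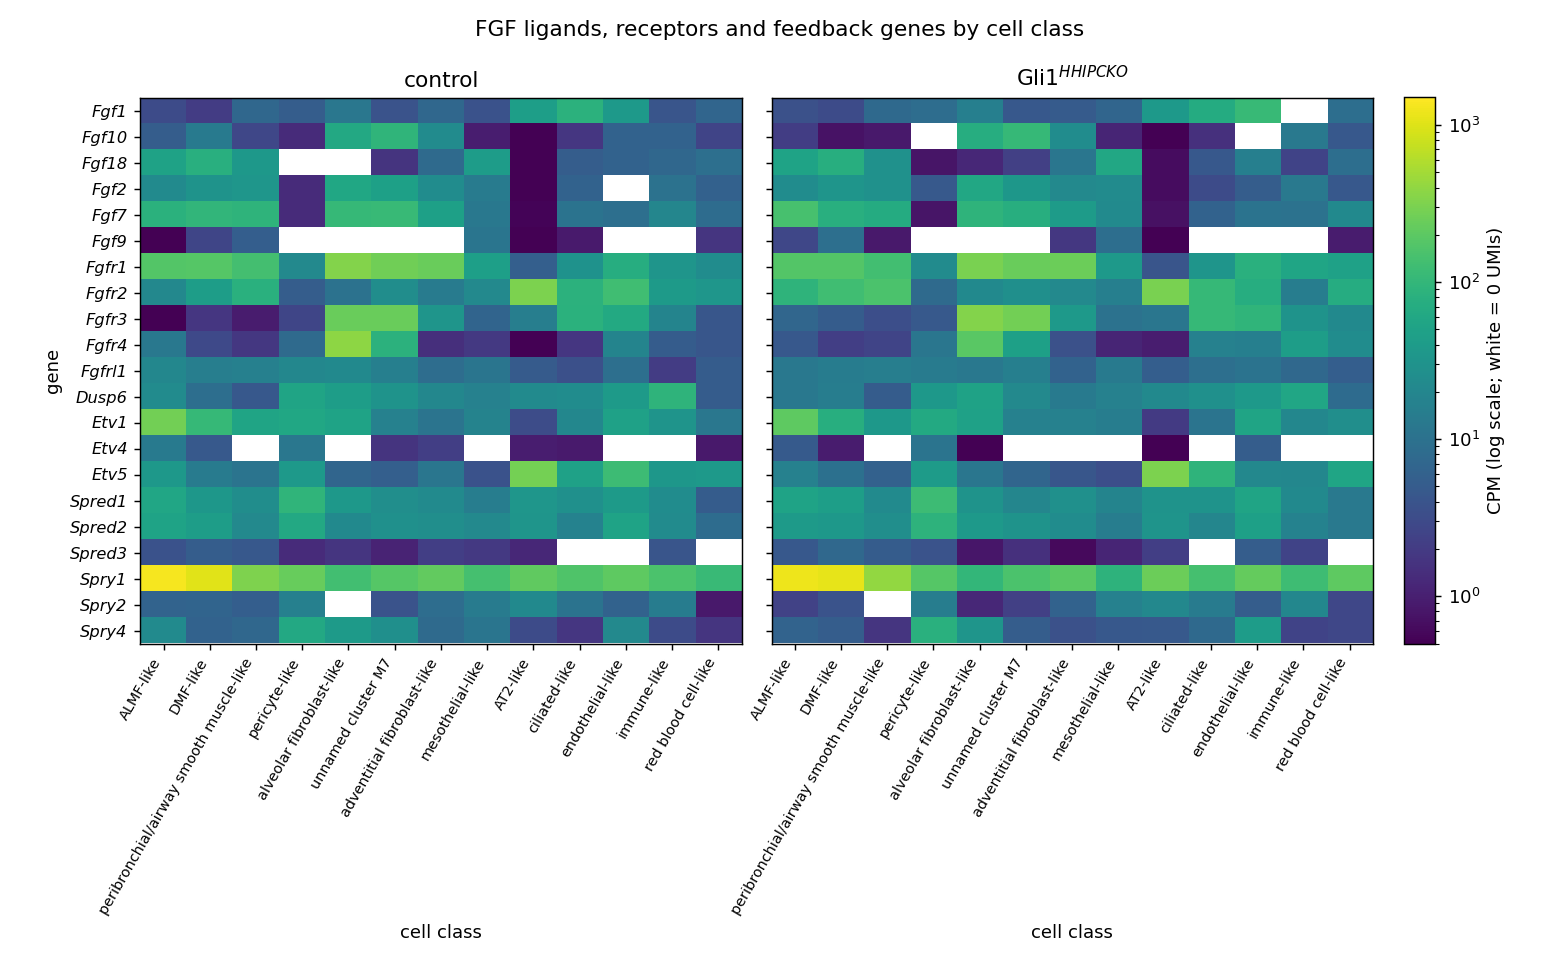
Heat map of the CPM (log color scale, white for 0 UMIs) of the 21 FGF genes that reached 50 UMIs in a class, by cell class, in control (left) and *Gli1 HHIPCKO* (right) cells. *Spry1* is at 1331 CPM in control ALMF-like cells, and *Fgfr2* and *Etv5* stand at 310 and 277 CPM in control AT2-like cells.

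The ligands differed in the stromal classes that held them. *Fgf10*, which drives epithelial budding, had levels of 63.2 CPM (44.5 to 87.2) in the control library and 73.7 CPM (66.3 to 81.7) in the other in alveolar fibroblast-like cells, and of 93.8 and 107 CPM in unnamed cluster M7, which *Inmt*, *C7* and *Dpep1* are among the genes leading. Adventitial fibroblast-like cells held 24.1 and 24.6 CPM of it. Intervals of the libraries overlapped in each of these cell groups. *Fgf18*, a ligand of alveolar septation, instead had levels of 77.7 and 75.2 CPM in DMF-like, 50.3 and 51.9 CPM in ALMF-like and 41.3 and 60.5 CPM in mesothelial-like cells. Alveolar fibroblast-like cells had 0 and 6 UMIs of it, and M7 had 3 and 3. *Fgf10* and *Fgf18* each reached 50 UMIs in 4 cell groups, not all of which are given here. Of the groups named, alveolar fibroblast-like cells and M7 had the most *Fgf10* and few *Fgf18* UMIs, in both libraries.

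*Fgf7*, a ligand for the epithelial form of *Fgfr2*, was found in most fibroblast classes. ALMF-like cells held 83.4 CPM (75.5 to 92.0) and 148 CPM (135 to 162) of it, with a log2 ratio of 0.83 (0.63 to 1.02). DMF-like cells held 98.4 and 79.2 CPM, with a ratio of -0.31 (-0.52 to -0.10). The ratio was thus above 0 in ALMF-like and below 0 in DMF-like cells, and neither passed 2-fold. *Fgf2*, a broadly acting ligand, was at 31.0 and 32.8 CPM in DMF-like and 23.2 and 24.9 CPM in ALMF-like cells. *Fgf1* was the only ligand gene to reach 50 UMIs in an epithelial class, at 44.9 and 38.1 CPM in AT2-like and 85.7 and 69.0 CPM in ciliated-like cells.

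Within DMF-like cells 2 ligand genes moved in opposite directions. *Fgf9* (ENSMUSG00000021974; GRCm38 chromosome 14, 58070547 to 58112720), known from the mesothelium and epithelium of the embryonic lung, had 9 UMIs in control and 51 UMIs in *Gli1 HHIPCKO* DMF-like cells, or 2.66 CPM (1.22 to 5.05) and 9.28 CPM (6.91 to 12.2). It was the higher in the *Gli1 HHIPCKO* library, with a log2 ratio of 1.80 (0.77 to 3.01). *Fgf10* (ENSMUSG00000021732; chromosome 13, 118669791 to 118792115) had 44 and 4 UMIs there, with a ratio of -4.16 (-6.10 to -2.70). Its 48 UMIs are under the minimum of 50, and it was chosen after its values were seen. A *Fgf10* UMI was found in 3.43% and 0.252% of DMF-like cells, and in 2.63% and 0.281% at 2000 UMIs drawn per cell (thinning; 266 and 167 cells had fewer). In red blood cell-like cells, which should lack these genes, the *Fgf10* share was 1.40% and 2.11%, or 0.490% and 1.69% after thinning. They held more RNA of the AT2 gene *Sftpc* than DMF-like cells, at 36571 and 44168 CPM against 2419 and 1199 CPM. Red blood cell-like cells are thus an uneven gauge of free RNA in DMF-like cells. For *Fgf9* the share in DMF-like cells was 0.717% and 3.02%, or 0.708% and 2.18% after thinning, and in red blood cell-like cells 0.935% and 0.526%, or 0.490% and 0% (0 of 177 cells). For both genes and in both libraries the thinned intervals of DMF-like and red blood cell-like cells overlapped. Only 204 and 177 red blood cell-like cells were thinned, so their intervals are wide and the overlap does not decide whether the levels differ.

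Among the receptors, *Fgfr1* was at 340 CPM (294 to 391) and 299 CPM (284 to 315) in alveolar fibroblast-like cells, 181 and 176 CPM in DMF-like and 179 and 174 CPM in ALMF-like cells. It was at 5.57 and 4.12 CPM in AT2-like cells, so it was the higher in fibroblasts, at similar levels in both libraries. *Fgfr3*, known from alveolar development together with *Fgfr4*, was at 243 CPM (204 to 286) and 336 CPM (320 to 353) in alveolar fibroblast-like cells, a log2 ratio of 0.47 (0.22 to 0.73). *Fgfr4* (ENSMUSG00000005320; chromosome 13, 55152640 to 55168759) went the other way in the same cells, with 379 CPM (331 to 433) in control and 192 CPM (180 to 205) in *Gli1 HHIPCKO*, a ratio of -0.98 (-1.19 to -0.76). The class has only 164 control cells against 1269, and unnamed M7, which also scores highest for alveolar fibroblasts, has 428 and 305. With M7 counted in the class, a choice made after the data were seen, *Fgfr4* was at 158 CPM (143 to 175) and 161 CPM (151 to 171), a ratio of 0.03 (-0.15 to 0.20), so the lower level in the class rests on where M7 is placed. The *Fgfr3* ratio was then 0.41 (0.28 to 0.55). In cluster M7 alone *Fgfr4* was at 85.9 and 47.0 CPM, a ratio of -0.87 (-1.32 to -0.44), and in ALMF-like cells at 12.4 and 4.56 CPM, a ratio of -1.45 (-2.37 to -0.61). It was lower in the *Gli1 HHIPCKO* library in all 3 cell groups, past 2-fold in ALMF-like cells. *Fgfrl1*, a receptor that lacks the kinase, was at 20.5 and 12.5 CPM in ALMF-like cells.

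The receptor gene *Fgfr2* (ENSMUSG00000030849; on the minus strand of chromosome 7, 130162451 to 133123350 in GENCODE, an unusually long span that holds the RefSeq promoter), which marks epithelium, stood at 310 CPM (302 to 320) and 303 CPM (295 to 312) in AT2-like cells. In myofibroblasts it was higher in the *Gli1 HHIPCKO* library. ALMF-like cells had 102 UMIs in control and 299 UMIs in *Gli1 HHIPCKO*, or 21.1 CPM (17.2 to 25.6) and 90.8 CPM (80.8 to 102), a log2 ratio of 2.10 (1.78 to 2.44). DMF-like cells had 145 and 718 UMIs, or 42.8 CPM (36.2 to 50.4) and 131 CPM (121 to 141), a ratio of 1.61 (1.35 to 1.88). Peribronchial/airway smooth muscle-like cells were at 81.1 CPM (65.1 to 99.8) and 153 CPM (132 to 178), a ratio of 0.92 (0.54 to 1.30). The intervals of the libraries did not overlap in any of these 3 classes. In alveolar fibroblast-like cells, with 6 and 110 UMIs, the ratio of 1.13 had an interval from -0.03 to 2.61, and with M7 counted in the class it was 0.13.

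Each myofibroblast cluster that held mostly *Gli1 HHIPCKO* cells was above those of the controls for *Fgfr2*. The ALMF-like clusters were at 19.1 CPM (M3, control), 24.0 CPM (M10, control) and 96.6 CPM (M5, *Gli1 HHIPCKO*). The DMF-like clusters were at 42.6 CPM (M1, control), 155 CPM (M4, *Gli1 HHIPCKO*) and 102 CPM (M9, *Gli1 HHIPCKO*). The 53 *Gli1 HHIPCKO* cells in M3 had 1 UMI of *Fgfr2*, so the ratio in ALMF-like cells rests on M5 being counted in that class. At a coarser cluster resolution of 0.5, which left 57 *Gli1 HHIPCKO* cells in it, the ratio was -1.44 with an interval from -6.76 to 1.10. Clustering the libraries separately gave 0.67, and naming cells one by one 1.28. In DMF-like cells the *Fgfr2* ratio lay between 1.11 and 2.01 over the 12 settings that could change it, and that of *Fgf9* between 1.12 and 2.41. The lowest *Fgf9* ratio, after thinning, had an interval from -0.07 to 2.48 on 33 UMIs, under the minimum of 50.

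Free RNA of AT2s can carry *Fgfr2* UMIs into other cells. Red blood cell-like cells had 182 *Fgfr2* UMIs per 1000 cells in control and 416 in *Gli1 HHIPCKO*, against 70.1 and 283 in ALMF-like cells and 116 and 452 in DMF-like cells. Red blood cell-like cells also had 3565 and 5816 UMIs of the AT2 gene *Sftpb* per 1000 cells, whereas ALMF-like cells had 122 and 106 and DMF-like cells 135 and 120. Other RNA foreign to these classes moved both ways. The AT2 gene *Sftpc* had log2 ratios of -0.65 in ALMF-like, -1.01 in DMF-like and -0.86 in peribronchial/airway smooth muscle-like cells, and the red blood cell gene *Hba-a1* of 1.45 (16.6 and 45.3 CPM), 1.09 (from 21.0 to 44.8 CPM) and 4.82 (from 21.0 to 593 CPM). *Hba-a1* was also higher where *Fgfr2* differed little, with ratios of 1.45 in AT2-like cells and 2.26 in cluster M7, against -0.03 and 0.12 for *Fgfr2*. Of the UMIs of *Fgfr2* and *Etv5* together, *Fgfr2* made up 52.8% and 49.4% in AT2-like cells and 47.0% and 56.4% in red blood cell-like cells. It made up 37.1% (31.4 to 43.1) and 84.2% (80.0 to 87.9) in ALMF-like cells and 75.5% (68.8 to 81.4) and 93.1% (91.1 to 94.8) in DMF-like cells. *Etv5* UMIs themselves fell from 173 to 56 in ALMF-like cells, so that share moved through both genes. The part of free RNA in the *Fgfr2* values was not tested. Pericyte-like cells, also stromal, had 9.50 and 14.3 *Fgfr2* UMIs per 1000 cells. They were shallower, with medians of 1694 and 1802 UMIs per cell against 3170 and 2955.5 in ALMF-like cells. The share of ALMF-like cells with an *Fgfr2* UMI was 6.74% and 21.6%, or 3.93% and 15.7% (13.4 to 18.2) after thinning without 157 and 141 shallower cells. In red blood cell-like cells these shares were 9.81% and 22.6%, or 4.41% and 11.3% (7.04 to 16.9) after leaving out 10 and 13 cells. In pericyte-like cells they were 0.950% and 1.43%, or 0.625% and 0.370% after thinning without 261 and 429 shallower cells. The ALMF-like shares were thus not above those of red blood cell-like cells before thinning, and the *Gli1 HHIPCKO* intervals overlapped after it. The thinned shares of DMF-like cells were 8.59% (6.92 to 10.5) and 22.6% (20.5 to 24.9). In *Gli1 HHIPCKO* cells this interval lay above that of red blood cell-like cells. In control cells it overlapped that of red blood cell-like cells (2.04 to 8.21).

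Feedback genes divided by class. *Spry1*, an inhibitor induced by FGF receptors, was at 1331 and 1211 CPM in ALMF-like, 1057 and 1099 CPM in DMF-like and 132 and 99.7 CPM in alveolar fibroblast-like cells. *Etv1* was at 270 CPM (255 to 285) and 209 CPM (193 to 225) in ALMF-like and 105 and 75.5 CPM in DMF-like cells, with log2 ratios of -0.37 (-0.50 to -0.23) and -0.48 (-0.69 to -0.27). *Spry4*, *Spred1* and *Spred2* had their highest levels among stromal classes in pericyte-like cells, at 63.3 and 80.8, 92.9 and 122, and 63.3 and 87.8 CPM. *Etv5* was highest in AT2-like cells, at 277 CPM (269 to 286) and 311 CPM (303 to 319), where *Spry2* was at 22.2 and 21.2 CPM. *Dusp6* was at 92.3 and 57.9 CPM in immune-like cells.

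In ALMF-like cells a group of feedback genes was lower in the *Gli1 HHIPCKO* library. Most *Gli1 HHIPCKO* cells of the class were in M5, which scored lower for ALMFs (0.70) than M3 (0.95) and M10 (0.77). A change within a cell type and a difference in the cells named thus cannot be told apart. *Spry4* (ENSMUSG00000024427; chromosome 18, 38586247 to 38601415), an inhibitor of RAS-ERK signaling, had 113 UMIs in control and 21 in *Gli1 HHIPCKO* cells, or 23.4 CPM (19.3 to 28.1) and 6.38 CPM (3.95 to 9.75), a log2 ratio of -1.87 (-2.62 to -1.19). The ETS factor *Etv4* (ENSMUSG00000017724; chromosome 11, 101769742 to 101785371) had 65 and 16 UMIs, or 13.5 CPM (10.4 to 17.1) and 4.86 CPM (2.78 to 7.89), a ratio of -1.47 (-2.36 to -0.66). *Etv5* (ENSMUSG00000013089; chromosome 16, 22381309 to 22439719) had 173 and 56 UMIs, or 35.8 CPM (30.7 to 41.6) and 17.0 CPM (12.8 to 22.1), a ratio of -1.07 (-1.54 to -0.63). All 3 were past 2-fold with intervals that did not overlap. After thinning, an *Etv5* UMI was found in 7.47% and 3.27% of ALMF-like cells and in 5.88% and 7.34% of red blood cell-like cells, with overlapping intervals in each library. The thinned intervals of *Etv4* and *Fgfr4* in these classes overlapped too, whereas *Spry4* in control ALMF-like cells, at 5.01% (3.89 to 6.34), was above red blood cell-like cells at 0.490% (0.0124 to 2.70). In the *Gli1 HHIPCKO* library the *Spry4* shares were 1.42% (0.757 to 2.41) and 0% (0 to 2.06), which overlap. Red blood cell-like cells are few and hold more AT2 RNA than ALMF-like cells, so these overlaps do not decide whether the levels differ. The part of free RNA in the lower levels was not tested. *Dusp6*, at 23.8 and 12.1 CPM, was just inside the threshold with a ratio of -0.97 (-1.53 to -0.44). *Spry1* and *Spred1* were at ratios of -0.14 and -0.15, so the lower levels were not shared evenly by the feedback genes. Over the settings tried, the ratio of *Spry4* lay between -2.09 and -0.84, that of *Etv4* between -2.37 and -0.62 and that of *Etv5* between -1.61 and -0.09, while *Fgfr4* was past 2-fold in the 10 settings that gave a ratio and could change it.

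The immediate early genes were also lower in *Gli1 HHIPCKO* ALMF-like cells. Between M3 (control) and M5 (*Gli1 HHIPCKO*), whose summed immediate early genes were at 2205 and 2998 CPM, *Spry4* was at 25.5 and 5.90 CPM, *Etv4* at 16.1 and 3.93 CPM, *Etv5* at 42.9 and 17.4 CPM, and *Fgfr4* at 17.4 and 4.91 CPM. *Dusp6* was at 16.1 CPM (11.9 to 21.3) in M3 and 11.1 CPM (7.71 to 15.6) in M5, which overlap, and at 36.0 CPM in M10. Each of these clusters is mostly of 1 library, so cluster and library cannot be told apart, and the part of the immediate early state in the lower levels was not tested. Without the clusters led by immediate early genes, a setting chosen after the data were seen, the ratios of *Spry4*, *Etv4*, *Etv5* and *Fgfr4* were -2.09, -2.09, -1.31 and -1.91. In M10 (control), where these genes were at 22920 CPM, *Spry4* was at 20.2 CPM (14.2 to 27.8), above M5, while *Fgfr4* at 3.82 CPM (1.54 to 7.87) and *Etv5* at 24.6 CPM (17.9 to 32.9) had intervals that overlapped those of M5.

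**Figure D2:**
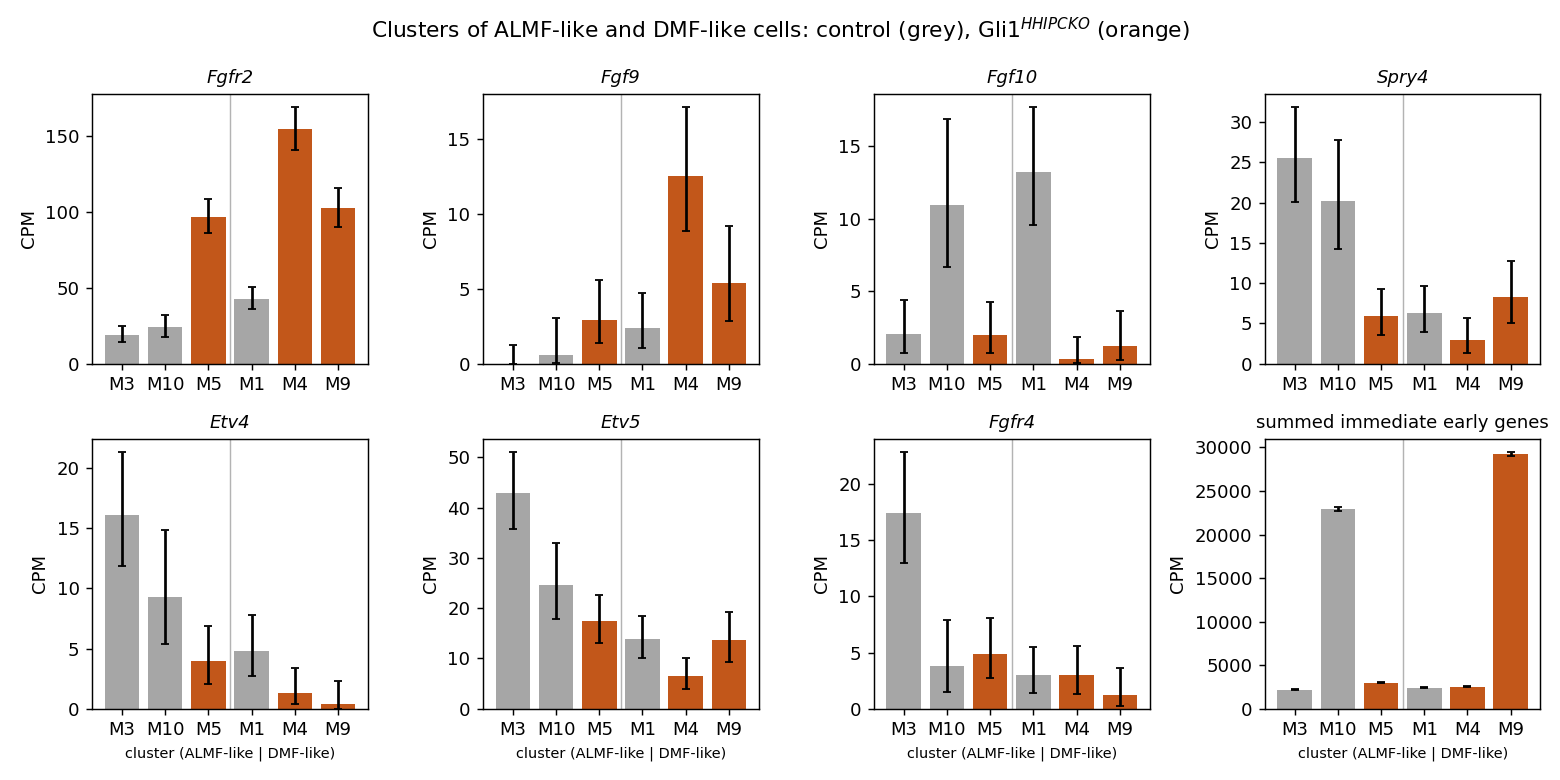
CPM of 7 FGF genes and of the summed immediate early genes in the 6 clusters that hold most ALMF-like (left of the line) and DMF-like (right) cells, for control (grey) and *Gli1 HHIPCKO* (orange) cells; bars are levels and error bars exact Poisson 95% intervals. *Fgfr2* is at 96.6 CPM in M5 against 19.1 CPM in M3, while the immediate early genes are high in M10 and M9.

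In DMF-like cells as a whole the feedback genes did not move in 1 direction. *Dusp6* was at 9.16 and 15.1 CPM, with a log2 ratio of 0.72 (0.11 to 1.37), and *Etv5* at 13.9 and 9.65 CPM. *Dusp6* was at 8.10 CPM in M1 (control), 4.94 CPM in M4 and 28.1 CPM in M9 (both *Gli1 HHIPCKO*), so the higher level was in the cluster led by immediate early genes. Between M1 and M4, with immediate early genes at 2431 and 2551 CPM, *Etv1* was at 106 and 44.8 CPM, *Etv5* at 13.8 and 6.59 CPM, *Spry1* at 1054 and 873 CPM and the summed feedback genes at 1283 and 1020 CPM, while the sum in M9 was 1651 CPM. The part of the immediate early state in these levels was not tested. *Spry4* was also lower in cluster M7, with 49 and 7 UMIs, or 27.3 and 5.30 CPM, a log2 ratio of -2.37 (-3.75 to -1.22). In unnamed cluster M8, which *Notch3* and *Ccn5* are among the genes leading, *Etv1* was at 63.6 and 31.2 CPM, a ratio of -1.02 (-1.78 to -0.30). In alveolar fibroblast-like cells *Spry4* was at 39.3 and 33.0 CPM, so its level there did not differ beyond the intervals.

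Counts of members past 2-fold were read against all genes with at least 50 UMIs in the class. In ALMF-like cells 15 members reached it; 1 was past 2-fold higher, against 3.03% of 10069 genes, and 4 were lower, against 1.97%. The median log2 ratio was -0.37 over the members and 0.01 over all these genes. In DMF-like cells 2 of 15 members were higher (*Fgfr2* and *Fgf9*), against 2.93% of 10237 genes, and 0 were lower, against 2.2%. In alveolar fibroblast-like cells 1 of 16 was higher (*Fgfr2*), against 4.29% of 8922 genes, and 0 were lower, against 2.51%. With M7 counted in that class *Fgfr2* was inside the threshold and *Fgf1*, with 14 and 84 UMIs, past it at 1.20 (0.37 to 2.13), against 0.42 (-0.69 to 1.78) without M7. In AT2-like cells 0 of 14 were higher, against 1.37% of 11052 genes, and 0 were lower, against 1.09%. The members' medians in the last 3 classes were -0.04, -0.01 and -0.06.

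**Figure D3:**
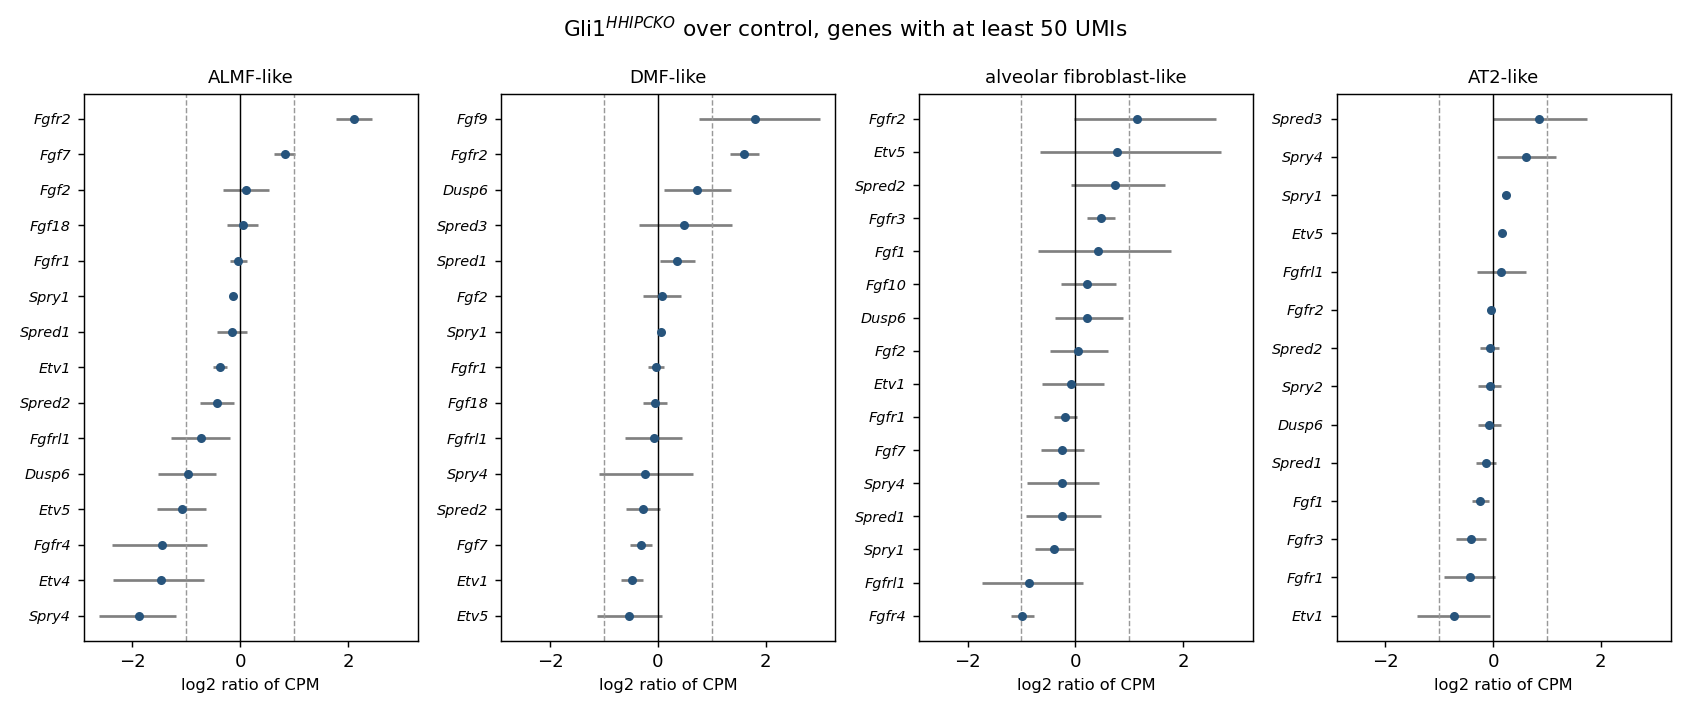
Log2 ratios of CPM (*Gli1 HHIPCKO* over control) of the FGF genes with at least 50 UMIs in each of 4 classes; points are ratios, bars exact binomial 95% intervals and dashed lines the 2-fold threshold. *Fgfr2* stands at 2.10 and *Spry4* at -1.87 in ALMF-like cells, while no FGF gene passes the threshold in AT2-like cells.

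The UMIs of the 11 feedback genes were also summed. ALMF-like cells were at 1816 and 1558 CPM, with a log2 ratio of -0.22 (-0.27 to -0.17), and without *Spry1*, which makes up most of the sum, at 485 and 346 CPM, a ratio of -0.49 (-0.59 to -0.38). DMF-like cells were at 1287 and 1298 CPM, a ratio of 0.01 (-0.04 to 0.07), which was 0.55 (0.45 to 0.65) with the libraries clustered separately and -0.33 without clusters led by immediate early genes. In the latter setting 1 member was higher and 2 lower past 2-fold, and *Fgf9*, with 47 UMIs, was under the minimum. Alveolar fibroblast-like cells were at 332 and 312 CPM, a ratio of -0.09 (-0.30 to 0.14). AT2-like cells were at 608 and 673 CPM, a ratio of 0.15 (0.11 to 0.19), with immediate early genes at 5144 and 7786 CPM. The differences in ALMF-like and AT2-like cells were under 2-fold, and neither kept its direction when each library was clustered alone, at 0.0176 (-0.05 to 0.09) and -0.20 (-0.45 to 0.04).

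Of 49 other genes of the pathway, fixed as a list, 39 reached the minimum in ALMF-like cells, with 2 higher and 2 lower past 2-fold, against 3.03% and 1.97% of all genes there. *Sulf2*, which removes sulfates from heparan sulfate, was at 1.45 and 13.1 CPM, and *Hspg2*, a heparan sulfate proteoglycan, at 113 and 243 CPM. The heparan sulfate sulfotransferase *Hs6st1* was at 124 and 57.4 CPM and the ERK phosphatase *Dusp5* at 12.4 and 2.13 CPM. In DMF-like cells 1 of 40 was higher and 1 lower (all genes 2.93% and 2.2%), again *Sulf2* at 3.55 and 8.74 CPM and *Hs6st1* at 78.6 and 36.8 CPM. In alveolar fibroblast-like cells *Braf* was higher and *Dusp7* lower among 34 (all genes 4.29% and 2.51%), and in AT2-like cells 0 of 40 passed in either direction (all genes 1.37% and 1.09%).

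Outside these classes, *Etv5* had 40 UMIs in control and 4 in *Gli1 HHIPCKO* endothelial-like cells, and *Fgfr2* had 38 and 6 in immune-like cells; both are under the minimum and were picked once their values had been seen. The AT2 gene *Sftpc* moved the same way, from 72634 to 46280 CPM in endothelial-like and from 25732 to 2604 CPM in immune-like cells. Its part in these values was not tested.

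Promoters are shown for the genes past 2-fold in ALMF-like cells that RefSeq's table of mouse promoters (GRCm38.p6, 250 bases before to 50 after a start) held and that may be printed, namely *Fgfr2*, which was higher, and *Fgfr4* and *Etv5*, which were lower. Capitals mark the letters CCGGAA or their reverse complement, the core of sites bound by ETS factors. Of 32851 promoters 14.9% held these letters on either strand, 3.89% the longer CCGGAAGT that contains them, 0.253% the GLI letters GACCACCCA and 31.5% the shorter CCACCC within those. The table held 37 promoters of 28 members, of which 5 held CCGGAA, 1 CCGGAAGT, 7 CCACCC and 0 GACCACCCA.
Fgfr2, chr7:130266759-130267058, minus strand: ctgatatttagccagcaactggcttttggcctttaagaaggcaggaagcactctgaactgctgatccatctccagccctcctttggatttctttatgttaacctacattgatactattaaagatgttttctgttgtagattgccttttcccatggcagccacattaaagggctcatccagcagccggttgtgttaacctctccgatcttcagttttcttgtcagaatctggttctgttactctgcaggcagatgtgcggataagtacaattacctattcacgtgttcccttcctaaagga
Fgfr4, chr13:55152568-55152867, plus strand: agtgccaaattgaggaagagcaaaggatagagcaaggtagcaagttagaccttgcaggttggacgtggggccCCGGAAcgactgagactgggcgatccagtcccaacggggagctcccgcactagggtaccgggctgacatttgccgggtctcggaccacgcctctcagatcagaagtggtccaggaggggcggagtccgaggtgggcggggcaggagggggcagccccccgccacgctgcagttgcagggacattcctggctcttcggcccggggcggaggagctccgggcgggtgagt
Etv5, chr16:22438319-22438618, minus strand: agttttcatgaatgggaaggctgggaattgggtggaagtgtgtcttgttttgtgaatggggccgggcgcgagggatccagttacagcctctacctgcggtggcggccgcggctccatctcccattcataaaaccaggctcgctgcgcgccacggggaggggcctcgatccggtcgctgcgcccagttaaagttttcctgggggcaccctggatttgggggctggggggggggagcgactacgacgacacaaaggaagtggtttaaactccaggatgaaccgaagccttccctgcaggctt
Etv5, chr16:22439521-22439820, minus strand: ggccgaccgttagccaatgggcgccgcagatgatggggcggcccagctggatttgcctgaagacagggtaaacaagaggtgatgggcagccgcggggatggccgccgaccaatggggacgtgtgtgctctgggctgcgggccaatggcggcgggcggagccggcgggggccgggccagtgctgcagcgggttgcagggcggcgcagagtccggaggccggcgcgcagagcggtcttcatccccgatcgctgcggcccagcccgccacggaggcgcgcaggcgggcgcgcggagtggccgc
The printed promoter of *Fgfr4* held CCGGAA once, and those of *Fgfr2* and *Etv5* did not hold these letters.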

How the data were processed

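Per the file headers and the study's methods, the authors counted UMIs per gene and cell with Cell Ranger 6.1.0, while the submitters' processing notes name 3.1.0 and mm10; the deposited counts are raw. The study's methods and the series design name a 5′ kit and the sample labels another. The members and all lists were chosen with earlier results of these data known.

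Cells outside 200 to 6000 genes or above 10% mitochondrial UMIs were left out. Both libraries were clustered together (2000 variable genes, 30 components, 20 neighbours, leidenalg 0.10.2 at resolution 1), and mesenchymal clusters again on their own. FGF, other pathway, hedgehog and sex-linked genes were held out. So were genes the study reports on (*Acta2*, *Myh11*, *Tagln*, *Igf1*, *Igf1r*, *Cdkn1a*, *Cdkn1b*, *Cdkn2a*, *B2m*, *Ypel3* and *Pdgfra*). Names came from markers of 18 classes, for fibroblasts largely from the study's own marker table, with thresholds set after the clusters were seen. These kept out clusters scoring highest for alveolar fibroblasts (M7, 428 control and 305 *Gli1 HHIPCKO* cells; M12, 115 and 277; M16, 45 and 181), DMFs (M13, 88 and 226) and AT2s (A9, 409 and 441; A14, 170 and 343), besides others. No doublets were removed. Genes with at least 50 UMIs in a class were described, and those past 2-fold given in both libraries. Gene positions are from GENCODE vM21 (GRCm38). The formulas for ratios and intervals were tested on simulated Poisson counts, which hold counting error and no variation between cells, clusters or mice. The 11 alternatives set beforehand changed cells, doublets, clusters, names, scaling, averaging, totals, minimum and depth. Python 3.11.15, numpy 2.4.6, scipy 1.17.1 and pandas 2.3.3 were used.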

Additional observations from a re-analysis of the deposited data

How the results depend on the processing

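There were 13 settings, 11 planned and 2 chosen after seeing the data. They gave 102 values for the 8 ratios of single genes past 2-fold in ALMF-like, DMF-like and alveolar fibroblast-like cells. The ratios of *Spry4* in M7, *Etv1* in M8 and *Fgfr2* in red blood cell-like cells, also past 2-fold, were not tried in these settings. Only 88 of the 102 values could change, because some settings leave the cells and UMIs of a ratio as they are. Of the 88, 72 were past 2-fold in the direction first found, and 1 was in the other direction, *Fgfr2* in ALMF-like cells at -1.44 (-6.76 to 1.10) at resolution 0.5. The summed feedback genes also changed sign with the libraries clustered separately, to 0.0176 in ALMF-like and -0.20 in AT2-like cells, when 355 and 223 *Gli1 HHIPCKO* cells had these names. That setting moved the sum to 0.55 in DMF-like and -0.45 in alveolar fibroblast-like cells. It gave 2 genes past 2-fold in ALMF-like cells (0 higher, 2 lower) and 4 in DMF-like cells (4 higher, 0 lower). It also gave 2 in alveolar fibroblast-like and 6 in AT2-like cells. Cells named one by one gave a sum of -0.0303 in ALMF-like cells, with 2 genes higher and 2 lower past 2-fold. In DMF-like cells they gave 4 genes (3 higher, 1 lower) and in AT2-like cells 1. With immediate early genes held out of clustering, the sums were -0.15 (ALMF-like) and -0.33 (DMF-like). There were then 6 genes past 2-fold in DMF-like cells (3 higher, 3 lower) and 0 in alveolar fibroblast-like cells. Without clusters led by immediate early genes, the sum in DMF-like cells was -0.33. Resolution 0.5 gave 0 genes higher and 6 lower in ALMF-like cells, and 0 genes in alveolar fibroblast-like cells. Leaving out doublets gave 1 gene in AT2-like cells. Classes with every cluster scoring highest for them, without naming thresholds, gave 2 genes in AT2-like cells. The cause of these moves was not tested.

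A minimum of 20 UMIs admitted more genes and gave 8 in ALMF-like, 5 in DMF-like and 1 in AT2-like cells, against 5, 2 and 0. Thinning to 2000 UMIs gave 2, 1 and, in alveolar fibroblast-like cells, 0. *Etv4* and *Fgfr4* in ALMF-like cells (42 and 46 UMIs) and *Fgf9* in DMF-like cells (33 UMIs) then fell under the minimum used elsewhere. *Etv5* in ALMF-like cells (138 UMIs, log2 ratio -0.95) and *Fgfr2* in alveolar fibroblast-like cells (55 UMIs, 0.73) stayed above it but inside 2-fold. *Etv4* and *Fgfr4* gave no ratio in ALMF-like cells at resolution 0.5, with 0 UMIs in *Gli1 HHIPCKO* cells. *Fgfr2* in alveolar fibroblast-like cells was past 2-fold in 3 of the 11 settings that could change it. No paired analysis was possible because each group has 1 mouse.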
